A study of Homo sapiens with 6 samples.

Results

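Ribosome footprints on 53 genes of protein entry, folding and quality control at the endoplasmic reticulum (ER) were compared between N6AMT1-depleted and control K562 cells. The genes were chosen by name from the pathway, although with earlier results of these data known. They were taken by symbol from a table of 19330 transcripts. They form 2 classes. The translocation and glycosylation class has 30 genes (translocon, translocon-associated TRAP complex, signal recognition particle, its receptor, signal peptidase and oligosaccharyltransferase). The folding class has 23 genes (chaperones, disulfide isomerases, J proteins, stress-induced luminal proteins, ER-associated degradation and stress sensors). All 53 passed the filter on low counts.

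K562 is a line of chronic myelogenous leukemia cells with erythroid features. Cells of both groups received the lentiviral vector pLentiCRISPRv2, which carries Cas9 and a guide, and underwent 48 h of puromycin selection and analysis 10 days post infection. The sgN6AMT1 group (3 libraries) carried a guide against N6AMT1, a methyltransferase of the translation release factor eRF1. The sgCtrl group (3 libraries) carried guides against the olfactory receptor genes written in the labels as OR11A1 and OR2M49, and which of them each library carried is not stated. Per the methods the libraries came from separate infections. Ribo-Seq counts the stretches of mRNA that ribosomes protect from nuclease, so that a value reflects mRNA abundance as well as translation. In such bulk libraries, fewer footprints in every cell and fewer cells with the mRNA cannot be told apart.

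Totals ranged from 1821356 to 2969736 counts per library. Pairs of libraries within a group differed by a chi-square of 1.25 to 1.68 per degree of freedom and pairs across the groups by 4.89 to 7.04. The targeted gene N6AMT1 had 25, 24 and 34 footprints in control cells and 10, 9 and 8 in depleted cells (log2 fold change -1.51 ± 0.31, SE, n = 3 per group; edgeR adjusted p = 6.69e-05). The K562 markers HBG1 (9553 CPM, counts scaled to a common library size) and TFRC (1952 CPM) were abundant in sgCtrl. The lymphoid gene CD3E did not exceed 1.38 CPM in any library, and MS4A1 and KRT5 were listed at 0, whereas EPCAM (162 to 195 CPM) and COL1A2 (22.8 to 33.0 CPM) were detected in both groups. Of 11 such K562 markers, 2 were higher and 5 lower in sgN6AMT1, beside 12.9% higher and 13.9% lower over all genes tested. LMO2 was lower (log2 fold change -1.44, edgeR adjusted p = 1.39e-11) and HBE1 higher (0.48, edgeR adjusted p = 1.46e-17), and their part in the results on ER genes was not tested.

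Proteins bound for secretion or for membranes are recognised at the ribosome by the signal recognition particle, handed to its receptor and threaded through the SEC61 channel. Beside the channel the signal peptide is removed by signal peptidase, and a glycan is attached by the oligosaccharyltransferase. In the ER lumen, BiP (HSPA5), the lectins calreticulin and calnexin, and the disulfide isomerases fold the chain, and those that fail are returned to the cytosol by ER-associated degradation (ERAD). The unfolded protein response, run by the sensors IRE1 (ERN1), PERK (EIF2AK3) and ATF6, is best known for raising transcription of luminal chaperones and ERAD genes when unfolded chains build up.

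Both classes contained genes with more and genes with fewer footprints after N6AMT1 depletion, and the changes were small. In edgeR's quasi-likelihood fit, with p-values adjusted over all genes by Benjamini-Hochberg, 16 of the 53 genes rose and 4 fell, and 33 did not pass the threshold of 0.05. Over all 9202 genes tested, 26.9% passed, 12.9% higher and 13.9% lower, against 37.7% of the ER genes, 30.2% higher and 7.55% lower. The log2 fold change was above 0 for 37 of the 53, with a median of 0.09, beside a median of 0.01 over all genes. The median fold of the 20 called genes, in either direction, was 1.19, and DERL2 (1.59-fold) was the only gene past 0.5 on the log2 scale. The groups did not overlap for 25 of the 53 genes, and for 37.5% of all genes. The genes were abundant, with a median of 170.9 CPM in sgCtrl against 35.1 CPM over all genes. In a separate fit of genes with a mean of at least 50 counts, 33.6% passed, 16.5% higher and 17.1% lower. In that fit 19 ER genes were higher and 3 lower, and CRELD2 and ERN1 were left out by the minimum.

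The call counts depended on the tool and on single libraries more than the directions of the called genes did. The alternatives refit the same counts, so that a called gene was unlikely to turn direction. All 20 called genes kept their direction under 16 alternative settings, and 7 of them passed in every setting: CALR, DAD1, DDOST, SRP14 and SYVN1 (higher) and CANX and SPCS2 (lower). These 7 were also the ones called by DESeq2, with 5 higher and 2 lower, beside 12.3% of 10780 genes (5.43% higher and 6.86% lower). Without sgCtrl replicate 2 the counts were 9 higher and 3 lower, and without sgN6AMT1 replicate 2 they were 11 higher and 2 lower. With total counts as the only scaling the split was 21 higher to 2 lower (17% and 10.6% of all genes), and with trends on coding length and GC content removed it was 12 higher to 6 lower (11.5% and 17.9% of all genes).

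**Figure D1:**
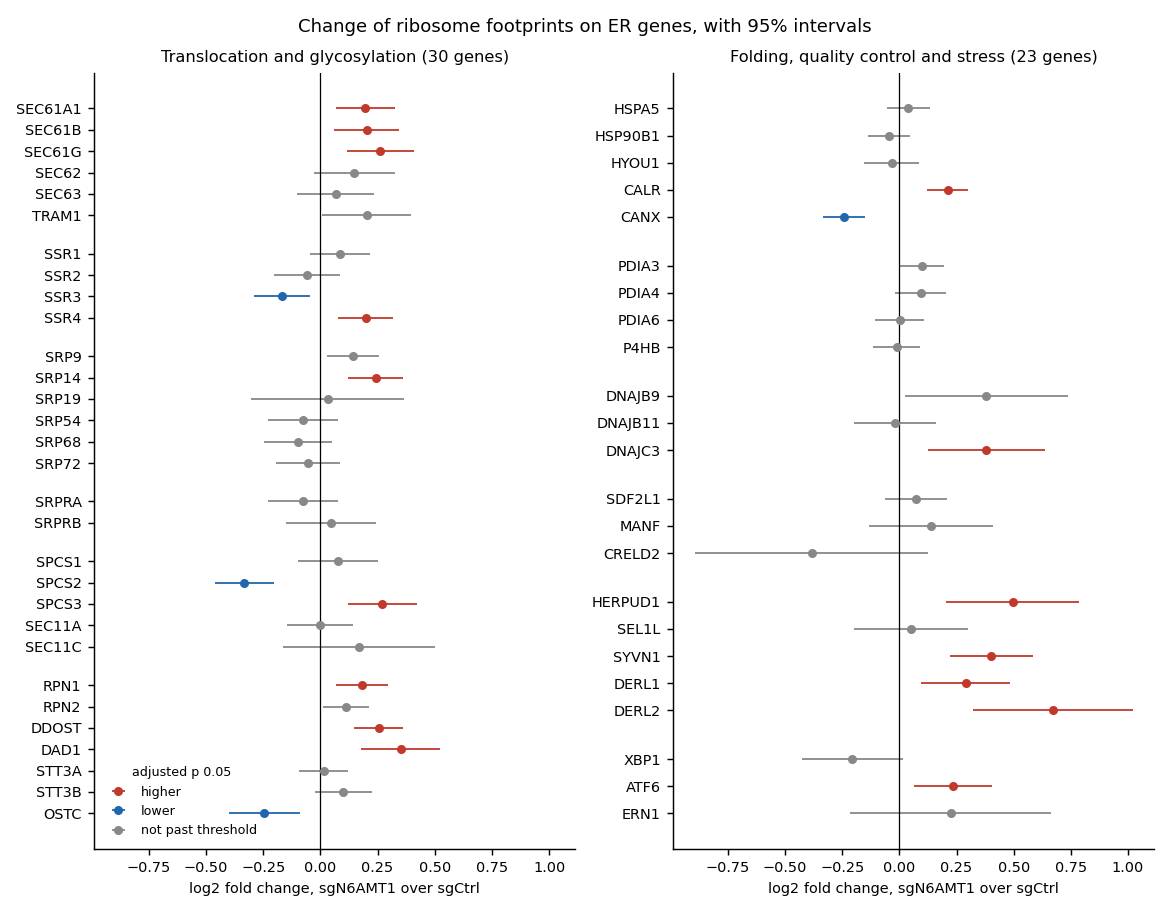
Log2 fold change of footprints, sgN6AMT1 over sgCtrl, with 95% intervals from edgeR's fit (n = 3 per group), for the 30 translocation and glycosylation genes (left) and the 23 folding, quality control and stress genes (right), grouped by role. Red and blue points passed an adjusted p of 0.05 and grey points did not, and the red points number 9 and 7 and the blue points 3 and 1.

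Translocation and glycosylation genes were set against the folding class, which holds ERAD genes and sensors beside chaperones and stress-induced genes. Taken whole, the classes gave similar counts. In the translocation and glycosylation class 9 of 30 genes rose and 3 fell, and in the folding class 7 of 23 rose and 1 fell. The roles of the folding class differed, with rises in 4 of 5 ERAD genes and 1 of 3 sensors. Of the 9 chaperones and isomerases 1 rose, with a median log2 fold change of 0.00. Among J proteins 1 of 3 rose, and among stress-induced luminal proteins 0 of 3. The median log2 fold change was 0.09 in each class. With the trends on coding length and GC content removed, the medians were 0.05 and 0.04. The median coding sequence of the ER genes was 1188 bases, against 1395 bases over all genes, and the part of length in these medians was not tested. The difference between the classes was described by counts and medians and has no test.

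As a share of all counts, translocation and glycosylation genes took 0.661%, 0.663% and 0.691% in sgCtrl, against 0.756%, 0.734% and 0.718% in sgN6AMT1. Folding genes took 0.790%, 0.823% and 0.824% in sgCtrl and 0.861%, 0.868% and 0.847% in sgN6AMT1. In both classes every sgN6AMT1 library lay above every sgCtrl library. These shares leave out edgeR's TMM scaling factors, which were 0.979 to 0.984 in sgCtrl and 1.017 to 1.022 in sgN6AMT1. With the factors applied, the folding shares overlap between the groups, and the translocation and glycosylation shares nearly meet. The ratio of folding to translocation counts was 1.195, 1.242 and 1.191 in sgCtrl and 1.139, 1.182 and 1.179 in sgN6AMT1. The sgN6AMT1 libraries lay lower, by a gap between the nearest libraries smaller than the range within either group, and this difference has no test. Within the classes, subunits of the same complex moved in opposite directions.

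**Figure D2:**
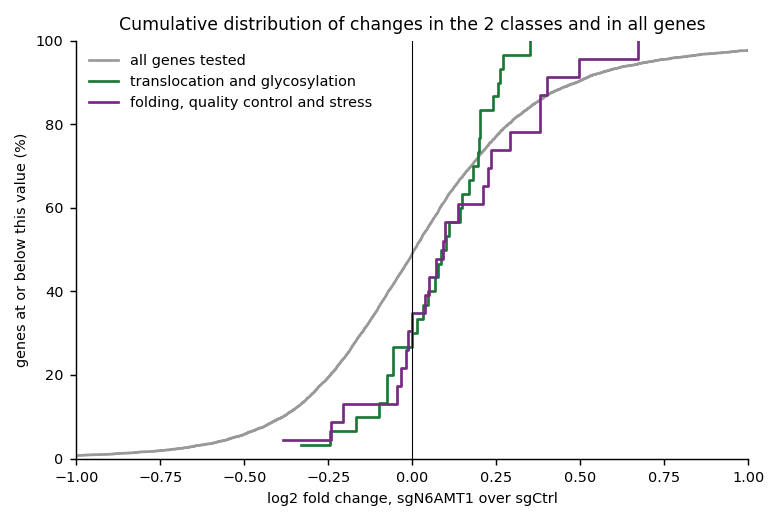
Cumulative percentage of genes (vertical axis) at or below a log2 fold change, sgN6AMT1 over sgCtrl (horizontal axis), for 30 translocation and glycosylation genes (green), 23 folding genes (purple) and 9202 genes tested (grey). The curves of the classes cross the middle of the distribution at the same value, 0.09, to the right of the grey curve, and the folding curve reaches further on both sides (-0.38 to 0.67, against -0.33 to 0.35).

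The promoters of these genes differ between the classes, and the sequences below show the elements behind the usual division into stress-induced and other genes. The ER stress response element (ERSE) reads CCAAT, 9 bases and CCACG. It is bound by NF-Y and ATF6. ERSE-II reads ATTGG, 1 base and CCACG, and the core of the site preferred by XBP1 reads TGACGTG. RefSeq windows (GRCh38.p14) of 250 bases before to 50 bases after the transcription start were searched on both strands, and 46 of the 53 genes had one. The ERSE was in 7 of 21 folding genes (33.3%) and in 0 of 25 translocation and glycosylation genes, beside 0.0916% of 27305 genes. The XBP1 core was in 5 of 25 translocation and glycosylation genes (20.0%) and, overlapping an ERSE-II, in HYOU1 of the folding class, beside 2.4% of all genes. The windows of 30 bases below are written 5′ to 3′ on the strand of the gene, with the elements in capitals (CGTGG and ATTGG are CCACG and CCAAT on the opposite strand, and CACGTCA is TGACGTG). They are shown for BiP and XBP1, for the lectins CALR and CANX, for the ERAD gene HERPUD1, and for SEC61A1 and the TRAP subunits SSR3 and SSR4. A gene can have several annotated starts, which need not be the start of the transcript whose footprints were counted. The windows of CANX, SEC61A1 and SSR3 lie downstream of the 5′ end of that transcript and belong to other annotated starts.
HSPA5 ERSE, chr9:125241385-125241414 (-): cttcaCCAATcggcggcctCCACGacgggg
XBP1 ERSE, chr22:28800597-28800626 (-): gctggCCAATcgcggagggCCACGaccgta
CALR ERSE, chr19:12938379-12938408 (+): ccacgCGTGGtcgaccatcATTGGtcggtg
CANX ERSE, chr5:179698773-179698802 (+): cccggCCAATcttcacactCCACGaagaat
HERPUD1 ERSE-II, chr16:56932016-56932045 (+): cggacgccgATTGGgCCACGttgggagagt
SEC61A1 XBP1 core, chr3:128052425-128052454 (+): cgggctagcacTGACGTGtctctcggcgga
SSR3 XBP1 core, chr3:156554147-156554176 (-): ctgataacagcCACGTCAgcaaggaaacta
SSR4 XBP1 core, chrX:153794529-153794558 (+): cagggaggggcCACGTCAgtgctgccagag

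Genes with the same element differed in direction. Of the 7 genes with an ERSE (HSPA5, HSP90B1, CALR, CANX, PDIA6, CRELD2 and XBP1), 1 rose, 1 fell and 5 did not pass, with a median log2 fold change of -0.04 and a range from -0.38 to 0.21. The gene that rose was CALR and the gene that fell was CANX. Of the 5 with the XBP1 core in the translocation class, SEC61A1 and SSR4 rose, SSR3 fell, and SEC62 and SRP19 did not pass. Of the 3 with an ERSE-II, HERPUD1 rose, and HYOU1 and SDF2L1 did not pass. A match of these letters is a description of the sequence and not evidence of binding in these cells. Which annotated start the cells used was not tested.

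The translocon was the role of the translocation class in which all 6 genes had a log2 fold change above 0, and 3 of the 6 rose. SEC61A1, the channel-forming subunit (chr3:128051641-128069839, 12 exons), was at 215, 229 and 247 CPM in sgCtrl and 266, 265 and 260.0 CPM in sgN6AMT1. The groups did not overlap, and the log2 fold change was 0.20 ± 0.06 (SE, n = 3 per group; edgeR adjusted p = 0.0163). SEC61G, a small subunit that spans the membrane beside the channel, was at 172, 147 and 164 CPM in sgCtrl and 195, 192 and 187 CPM in sgN6AMT1, again without overlap (0.26 ± 0.07, edgeR adjusted p = 0.00394). SEC61B, the other small subunit, was at 187, 179 and 225 CPM in sgCtrl and 221, 214 and 242 CPM in sgN6AMT1. Its sgCtrl replicate 3 reached into the range of the sgN6AMT1 libraries, and the log2 fold change was 0.20 ± 0.07 (edgeR adjusted p = 0.0249). SEC62 and SEC63, which serve chains that enter after synthesis, and TRAM1, a membrane protein beside the channel, had log2 fold changes of 0.15, 0.07 and 0.20 that did not pass (edgeR adjusted p = 0.222, 0.615 and 0.117).

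The calls of the translocon rested on few libraries. Without sgCtrl replicate 2 the edgeR adjusted p was 0.0701 for SEC61A1, 0.298 for SEC61B and 0.101 for SEC61G. SEC61A1 was also not called without sgCtrl replicate 1 (0.119) or sgN6AMT1 replicate 2 (0.0712), nor SEC61B without sgCtrl replicate 1 (0.0958) or sgN6AMT1 replicate 3 (0.15), and with trends on length and GC removed the edgeR adjusted p of SEC61B was 0.664 and that of SEC61A1 0.11.

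In the TRAP complex, which sits beside the channel and aids the entry of some chains, one subunit rose and another fell. SSR4 was at 323, 285 and 337 CPM in sgCtrl and 349, 373 and 356 CPM in sgN6AMT1 (log2 fold change 0.20 ± 0.06, edgeR adjusted p = 0.00896). SSR3 was at 315, 327 and 333 CPM in sgCtrl and 307, 267 and 295 CPM in sgN6AMT1 (-0.17 ± 0.06, edgeR adjusted p = 0.0320). Neither gene overlapped between the groups, although SSR3 in sgN6AMT1 replicate 1 lay just under the lowest sgCtrl library. For this pair and 3 others, singled out after their values were seen, the counts were also divided within each library, and SSR4 over SSR3 was 1.03, 0.870 and 1.01 in sgCtrl and 1.14, 1.39 and 1.21 in sgN6AMT1. SSR1 (0.09) and SSR2 (-0.06) did not pass. The SSR4 call was lost without sgCtrl replicate 2 (edgeR adjusted p = 0.221) or sgN6AMT1 replicate 2 (0.096) and with the length and GC trends removed (0.321). The SSR3 call was lost without sgCtrl replicate 2 (0.0893), sgCtrl replicate 3 (0.0904) or sgN6AMT1 replicate 2 (0.297). The SSR3 call also depended on scaling and filter. It was lost with total counts as the only scaling (0.17), upper-quartile factors (0.0527) and a mean of at least 50 counts (0.0684).

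Among the 6 protein subunits of the signal recognition particle, SRP14 alone passed. SRP14 and SRP9 bind the Alu domain of the particle's RNA, the part that pauses elongation. SRP14 was at 313, 281 and 293 CPM in sgCtrl and 352, 340 and 354 CPM in sgN6AMT1, without overlap (log2 fold change 0.24 ± 0.06, edgeR adjusted p = 0.00107). Its partner SRP9 was at 373, 413 and 408 CPM in sgCtrl and 473, 424 and 420.2 CPM in sgN6AMT1. The SRP9 groups did not overlap either, but the log2 fold change of 0.14 ± 0.06 did not pass (edgeR adjusted p = 0.0577). The signal-binding subunit SRP54 (-0.08), SRP68 (-0.10), SRP72 (-0.06) and SRP19 (0.03) did not pass, and nor did the receptor subunits SRPRA (-0.08) and SRPRB (0.05). GENCODE lists 5 pseudogenes named after SRP14, and footprints shared with such copies could not be separated here.

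Signal peptidase was the second complex with subunits in opposite directions. SPCS2 (chr11:74949265-74977087, 6 exons), an accessory subunit, was at 308, 318 and 333 CPM in sgCtrl and 274, 263 and 221 CPM in sgN6AMT1. Each sgN6AMT1 library lay below each sgCtrl library, and the gene fell by 0.33 ± 0.06 on the log2 scale (edgeR adjusted p = 1.95e-05), the largest decrease among called ER genes. SPCS3, also an accessory subunit, was at 142, 157 and 171 CPM in sgCtrl and 207, 184 and 174 CPM in sgN6AMT1, and rose by 0.27 ± 0.08 (edgeR adjusted p = 0.00388) without overlap. Within a library, the ratio of SPCS3 to SPCS2 counts was 0.462, 0.493 and 0.512 in sgCtrl and 0.755, 0.699 and 0.787 in sgN6AMT1. The catalytic subunits SEC11A (0.00, edgeR adjusted p = 0.989) and SEC11C (0.17, edgeR adjusted p = 0.503) and the accessory subunit SPCS1 (0.08, edgeR adjusted p = 0.578) did not pass. The SPCS3 call was lost without sgN6AMT1 replicate 1 (edgeR adjusted p = 0.0767), and 4 GENCODE pseudogenes carry the name of SPCS2.

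The oligosaccharyltransferase, which moves a preformed glycan onto the chain, had 3 subunits that rose and 1 that fell among 7. DDOST (chr1:20651767-20661544, 11 exons), a structural subunit, was at 441, 448 and 458 CPM in sgCtrl and 541, 537 and 528 CPM in sgN6AMT1 (log2 fold change 0.25 ± 0.05, edgeR adjusted p = 9.51e-05). DAD1, a small subunit named as a defender against cell death, was at 104, 93.8 and 112 CPM in sgCtrl and 138, 131 and 123 CPM in sgN6AMT1 (0.35 ± 0.09, edgeR adjusted p = 0.00114). RPN1 (ribophorin I) was at 348, 368 and 359 CPM in sgCtrl and 404, 407 and 409.9 CPM in sgN6AMT1 (0.18 ± 0.06, edgeR adjusted p = 0.0109). In each of the 3 the sgN6AMT1 libraries lay above all sgCtrl libraries.

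OSTC, the subunit through which the STT3A form of the enzyme meets the translocon, went the other way. It was at 160, 164 and 169 CPM in sgCtrl and 149, 131 and 135 CPM in sgN6AMT1, without overlap (log2 fold change -0.25 ± 0.08, edgeR adjusted p = 0.0114). The ratio of DAD1 to OSTC counts was 0.652, 0.570 and 0.665 in sgCtrl and 0.924, 0.997 and 0.912 in sgN6AMT1. The catalytic subunits STT3A (0.01, edgeR adjusted p = 0.882) and STT3B (0.10, edgeR adjusted p = 0.246) and RPN2 (0.11, edgeR adjusted p = 0.0948) did not pass. The RPN1 call was lost without sgCtrl replicate 1 (edgeR adjusted p = 0.0606) and with the length and GC trends removed (0.0654). The OSTC call was lost without sgN6AMT1 replicate 2 (0.102) and with total counts as the only scaling (0.056). GENCODE lists 7 pseudogenes named after OSTC.

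**Figure D3:**
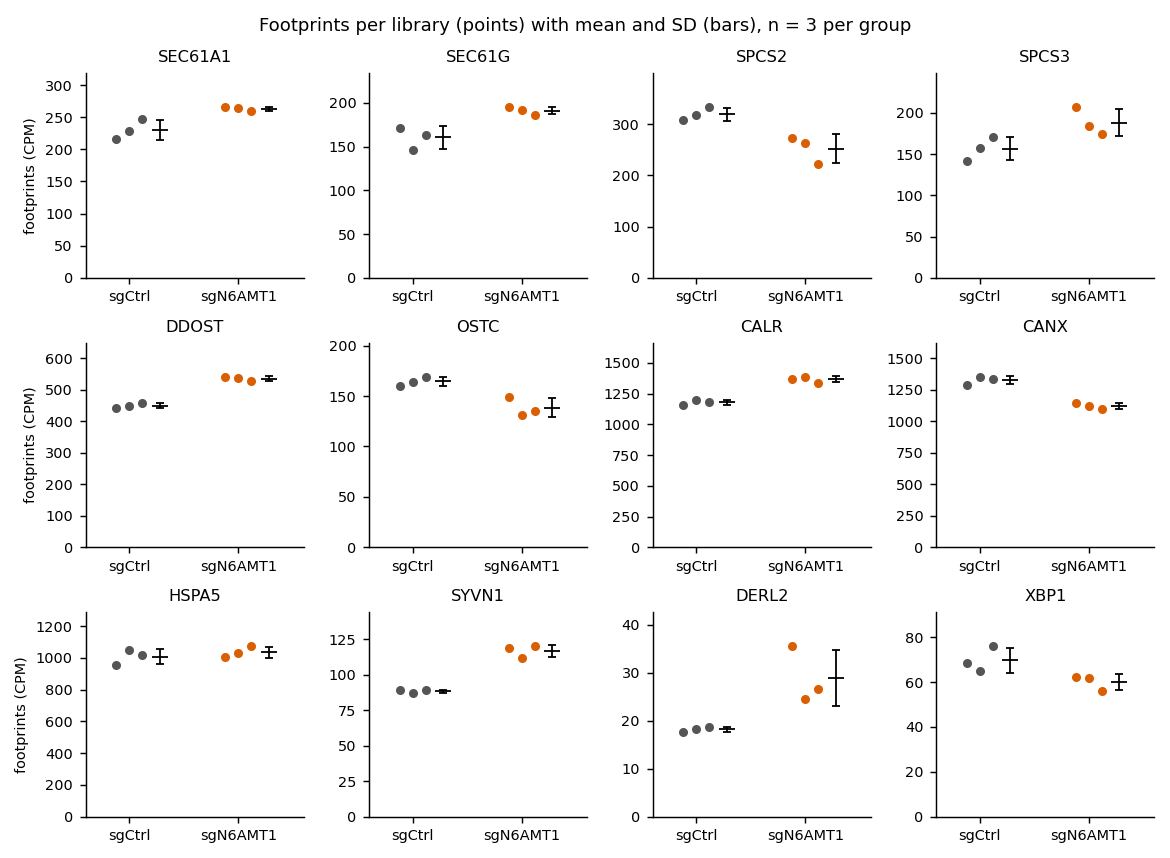
Footprints per library in CPM (vertical axes, from 0) for 12 of the ER genes in sgCtrl (grey) and sgN6AMT1 (orange), with 1 point per library and the mean and SD beside them (n = 3 per group). SPCS2, OSTC and CANX lie lower in every sgN6AMT1 library, SPCS3, DDOST, CALR and SYVN1 lie higher, and the points of HSPA5 overlap.

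The large chaperones of the lumen did not change together, and the lectin pair moved in opposite directions. CALR (calreticulin, the soluble lectin; chr19:12938609-12944489, 9 exons) was at 1160, 1197 and 1185 CPM in sgCtrl and 1371, 1387 and 1339 CPM in sgN6AMT1. It rose by 0.21 ± 0.05 on the log2 scale (edgeR adjusted p = 0.000144). CANX (calnexin, the membrane-bound lectin; chr5:179698417-179728907, 15 exons) was at 1290.4, 1354 and 1338 CPM in sgCtrl and 1144, 1121 and 1100.4 CPM in sgN6AMT1. It fell by 0.24 ± 0.05 (edgeR adjusted p = 1.28e-05). Neither gene overlapped between the groups, and both passed in every alternative setting. CANX had more footprints than CALR in every sgCtrl library and fewer in every sgN6AMT1 library, with a ratio of CALR to CANX counts of 0.899, 0.884 and 0.886 in sgCtrl and 1.198, 1.237 and 1.217 in sgN6AMT1.

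HSPA5 (BiP), the general luminal chaperone and the usual readout of ER stress, was at 955, 1048 and 1018 CPM in sgCtrl and 1005, 1030.4 and 1073 CPM in sgN6AMT1. The groups overlapped, and the log2 fold change was 0.04 with a 95% interval of -0.06 to 0.13 (edgeR adjusted p = 0.601). HSP90B1 (GRP94), the luminal HSP90, was at 1183, 1248 and 1282 CPM in sgCtrl and 1244, 1219 and 1135 CPM in sgN6AMT1. It overlapped as well, with a log2 fold change of -0.04 and an interval of -0.14 to 0.05 (edgeR adjusted p = 0.527). HYOU1, a large HSP70 relative that exchanges nucleotide on BiP, had a log2 fold change of -0.03 (edgeR adjusted p = 0.738).

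None of the 4 disulfide isomerases passed. PDIA3, which works with the lectins on glycoproteins, was at 812, 863 and 867 CPM in sgCtrl and 932, 926 and 862 CPM in sgN6AMT1, and the groups overlapped through sgN6AMT1 replicate 3 (log2 fold change 0.10 ± 0.05, edgeR adjusted p = 0.134). PDIA4 (0.09), PDIA6 (0.00) and P4HB (-0.01), isomerases of broad range, had edgeR adjusted p-values of 0.225, 0.9995 and 0.895. The 9 chaperones and isomerases together gave a median log2 fold change of 0.00, with 1 higher and 1 lower.

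The J proteins steer clients to BiP, and 1 of the 3 rose. DNAJC3 (P58IPK), which also restrains the PERK kinase, was at 37.2, 34.5 and 36.5 CPM in sgCtrl and 44.7, 51.4 and 43.4 CPM in sgN6AMT1, without overlap (log2 fold change 0.38 ± 0.13, edgeR adjusted p = 0.0197). DNAJB9 (ERdj4), a target of XBP1, was at 16.6, 22.1 and 19.7 CPM in sgCtrl and 28.1, 29.4 and 18.5 CPM in sgN6AMT1. Its log2 fold change was of the same size, 0.38 ± 0.18, but sgN6AMT1 replicate 3 lay among the sgCtrl libraries and the gene did not pass (edgeR adjusted p = 0.11, and 0.0248 without that library). DNAJB11 (-0.02) did not pass. The DNAJC3 call was lost without sgCtrl replicate 2 (edgeR adjusted p = 0.104) or sgN6AMT1 replicate 2 (0.154).

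None of the 3 luminal proteins known chiefly as products of ER stress passed. SDF2L1, a BiP partner, had a log2 fold change of 0.07 ± 0.07 (edgeR adjusted p = 0.485). MANF, a secreted survival factor, had 0.14 ± 0.14 (edgeR adjusted p = 0.501). CRELD2 was the scarcest, at 22, 32 and 26 counts in sgCtrl against 17, 23 and 17 in sgN6AMT1, and its log2 fold change of -0.38 ± 0.26 did not pass although the CPM values of the groups did not overlap (edgeR adjusted p = 0.281).

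ERAD had the highest share of genes that rose, 4 of 5 (80.0%, beside 12.9% of all genes tested), and the largest increases of the folding class. Of 22 other ERAD genes, given further below, 13.6% rose, near that share of all genes. Among those 22, 9.09% fell, beside 13.9% of all genes. DERL2 (chr17:5471254-5486178, 7 exons), a derlin of the channel that returns chains to the cytosol, was at 17.6, 18.3 and 18.7 CPM in sgCtrl and 35.5, 24.6 and 26.6 CPM in sgN6AMT1. The log2 fold change was 0.67 ± 0.18 (edgeR adjusted p = 0.00180), and without sgN6AMT1 replicate 1, the highest library, the gene did not pass (edgeR adjusted p = 0.071). DERL1, its relative, was at 88.4, 76.2 and 88.7 CPM in sgCtrl and 104, 108 and 93.4 CPM in sgN6AMT1 (0.29 ± 0.10, edgeR adjusted p = 0.0179). Neither derlin overlapped between the groups.

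SYVN1 (HRD1; chr11:65127279-65134519, 16 exons), the ubiquitin ligase at the centre of the complex, was at 88.9, 87.2 and 89.2 CPM in sgCtrl and 119, 112 and 120.0 CPM in sgN6AMT1. The libraries of each group lay close together and apart from the other group, and the log2 fold change was 0.40 ± 0.09 (edgeR adjusted p = 0.000309). HERPUD1 (chr16:56932142-56944864, 8 exons), a membrane scaffold of the ligase and a target of the unfolded protein response, was at 26.1, 26.2 and 26.6 CPM in sgCtrl and 39.9, 35.9 and 35.3 CPM in sgN6AMT1 (0.50 ± 0.15, edgeR adjusted p = 0.00626), without overlap. SEL1L, the obligate partner of SYVN1, was at 39.2, 48.6 and 42.4 CPM in sgCtrl and 42.1, 47.5 and 47.2 CPM in sgN6AMT1 and did not pass (0.05 ± 0.13, edgeR adjusted p = 0.811). The 5 genes together held 0.0255%, 0.0251% and 0.0259% of counts in sgCtrl and 0.0345%, 0.0334% and 0.0326% in sgN6AMT1. DERL1 was not called without sgCtrl replicate 2 (edgeR adjusted p = 0.173), sgN6AMT1 replicate 1 (0.0561) or sgN6AMT1 replicate 2 (0.131), and by DESeq2 SYVN1 was the one ERAD gene of the 5 to pass.

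Of the sensors, ATF6 rose and XBP1 and ERN1 did not pass. ATF6, a membrane-held transcription factor freed by proteolysis, was at 108, 109 and 119 CPM in sgCtrl and 133, 127 and 136 CPM in sgN6AMT1 (log2 fold change 0.23 ± 0.09, edgeR adjusted p = 0.0307). The groups did not overlap, but the call was lost in 5 of the 6 fits that left out 1 library, with an edgeR adjusted p of up to 0.119 (without sgCtrl replicate 2). XBP1, whose mRNA is spliced by IRE1 to make the active factor, was at 68.3, 65.2 and 75.9 CPM in sgCtrl and 62.2, 61.8 and 55.9 CPM in sgN6AMT1. Every sgN6AMT1 library lay below every sgCtrl library, and the log2 fold change of -0.21 ± 0.11 did not pass (edgeR adjusted p = 0.173). The table has 1 row for XBP1, so that spliced and unspliced forms were not separated. ERN1 was scarce, with 27 to 36 counts per library (0.22 ± 0.22, edgeR adjusted p = 0.497).

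**Figure D4:**
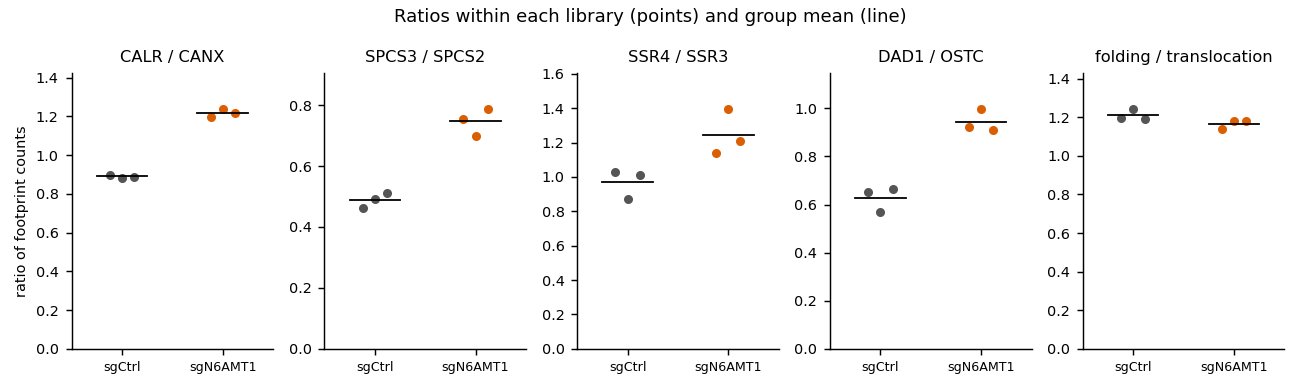
Ratio of footprint counts of 2 genes, or of the summed folding and translocation classes, within each library (points) with the group mean (line), for sgCtrl (grey) and sgN6AMT1 (orange). The 4 pairs of genes, which were chosen because their members moved apart, do not overlap between the groups (CALR over CANX lies between 0.884 and 0.899 in sgCtrl and between 1.198 and 1.237 in sgN6AMT1), and the ratio of the classes lies between 1.139 and 1.242 in all libraries.

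Footprints per kilobase of coding sequence allowed levels to be set side by side for 50 of the 53 genes. In sgCtrl, SRP9 was highest at 1525 ± 82.8 CPM per kb (SD, n = 3), followed by CALR at 941 ± 15.0, SEC61G at 776 ± 62.3 and CANX at 746 ± 18.6. SEC61G and CANX did not differ beyond their spread. BiP (513 ± 24.2) and GRP94 (513 ± 20.7) had the same level per kb. Within the SEC61 channel the small subunits SEC61G and SEC61B (677 ± 84.3) had more footprints per kb than SEC61A1 (159 ± 10.9). Their coding sequences are short (207 and 291 bases, and 261 for SRP9, against 1449 for SEC61A1). Whether the counts cover coding sequence alone is not given, and SRP9, SRP14 and SEC61G have pseudogenes. Levels per kb may therefore not compare well across genes of unlike length. Within the signal recognition particle SRP9 and SRP14 (719 ± 39.3) exceeded SRP54 (107 ± 10.8) and SRP68 (90.7 ± 2.65). The sensors ERN1 and ATF6 were at 4.48 ± 0.65 and 55.7 ± 3.08 CPM per kb, and the ERAD genes ran from SEL1L at 18.2 ± 2.01 to DERL1 at 112 ± 9.46. The genes with the largest fold increases, DERL2 (25.3 ± 0.81) and HERPUD1 (22.4 ± 0.23), were thus among the least occupied.

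Other genes of the same pathways gave the wider setting. A list of 164 further genes was written down by role. They are called further ER genes here, although stress response genes such as ATF4 and ASNS code for proteins outside the ER. Of the 164, 150 were tested, and 34 rose and 12 fell, with a median log2 fold change of 0.11. That is 30.7% called, beside 26.9% of all genes, with 12.9% higher and 13.9% lower. DESeq2 called 10 of them higher and 4 lower. Of 16 membrane insertion genes (EMC and GET complexes), 4 rose and 0 fell, with 8 of 16 above 0 and a median of 0.04. Of 14 translocon partners 4 rose and 1 fell, with a median of 0.13. In the assembly of the dolichol-linked glycan, the donor of the oligosaccharyltransferase, 1 of 23 was higher and 2 lower, with a median of -0.04. ALG6, which adds a glucose to that glycan, was among those that fell (-0.41 ± 0.14, edgeR adjusted p = 0.0174), although not without sgCtrl replicate 2 (0.0738) or sgN6AMT1 replicate 2 (0.0819). Among 12 genes of glycan trimming and glycoprotein quality control 4 rose and 1 fell, MAN1B1, a mannosidase that trims misfolded glycoproteins (-0.47 ± 0.13, edgeR adjusted p = 0.00273). Of the 22 other ERAD genes 3 rose and 2 fell, beside 4 and 0 of the 5 described above. TMEM129, a ubiquitin ligase of the derlin pathway, rose (0.74 ± 0.26, edgeR adjusted p = 0.0231; 0.0993 without sgCtrl replicate 2, 0.154 without sgN6AMT1 replicate 1 and 0.0782 without sgN6AMT1 replicate 3), and NGLY1, which strips glycans from returned chains, fell (-0.37 ± 0.11, edgeR adjusted p = 0.00605; 0.0839 without sgCtrl replicate 2). By DESeq2 none of ALG6 (adjusted p = 0.175), MAN1B1 (0.0602), TMEM129 (0.218) and NGLY1 (0.0721) passed.

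The role listed as oxidative folding also held proline isomerases and prolyl hydroxylases, which do not form disulfides. In it 6 of 21 genes rose and 2 fell. It held the largest increase among called genes of the pathway list, that of the isomerase PPIC. PPIC, a proline isomerase of the secretory pathway (cyclophilin C), was at 5.02, 6.21 and 5.92 CPM in sgCtrl and 12.7, 13.8 and 14.1 CPM in sgN6AMT1 (log2 fold change 1.22 ± 0.27, edgeR adjusted p = 0.000225). P4HA2, a catalytic subunit of the collagen prolyl hydroxylase, was at 30.1, 25.2 and 31.1 CPM in sgCtrl and 53.04, 57.03 and 48.3 CPM in sgN6AMT1 (0.90 ± 0.13, edgeR adjusted p = 3.99e-08). P4HB, which is both a disulfide isomerase and the partner subunit of P4HA2, did not pass (-0.01). Both PPIC and P4HA2 separated the groups without overlap.

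The arm of the response that runs through PERK and ATF4 was split. EIF2AK3 (PERK) gave 17, 36 and 29 counts in sgCtrl against 41, 19 and 28 in sgN6AMT1 and did not pass (log2 fold change 0.21 ± 0.24, edgeR adjusted p = 0.575). ATF4, the transcription factor whose translation rises when eIF2 is phosphorylated, was at 22.1, 29.3 and 25.1 CPM in sgCtrl and 39.0, 39.3 and 33.1 CPM in sgN6AMT1 (0.53 ± 0.15, edgeR adjusted p = 0.00414; DESeq2 adjusted p = 0.0968). Among genes known as ATF4 targets or partners, ATF3 rose (1.08 ± 0.29, edgeR adjusted p = 0.00224), and ATF5 (-1.35 ± 0.31, edgeR adjusted p = 0.000288) and PPP1R15A, which recruits the phosphatase of eIF2 (-0.61 ± 0.20, edgeR adjusted p = 0.0168), fell. PPP1R15A did not pass without sgCtrl replicate 1 (0.0591), sgCtrl replicate 3 (0.0951) or sgN6AMT1 replicate 3 (0.0782). By DESeq2, ATF5 passed (adjusted p = 0.0232), and ATF3 (0.0699) and PPP1R15A (0.143) did not.

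DDIT3 (CHOP), the death-linked factor of prolonged ER stress, was under the filter, at 5, 11 and 7 counts in sgCtrl against 3, 2 and 2 in sgN6AMT1. The summed counts were 23 and 7, a ratio of 0.339 with an exact 95% counting interval of 0.123 to 0.817 that leaves out the spread between libraries. Of the 12 genes tested in this arm 3 rose and 3 fell. The role of other sensors and their processing held 8 tested genes, with EIF2AK3 and the protease MBTPS2 among them. Of these 8 genes 3 rose, MBTPS2 included, and 0 fell (37.5% higher, beside 12.9% of all genes). CREB3, a relative of ATF6, rose by 0.67 ± 0.22 on the log2 scale (edgeR adjusted p = 0.0166; 0.155 without sgCtrl replicate 2, 0.105 without sgN6AMT1 replicate 3 and 0.188 by DESeq2).

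**Figure D5:**
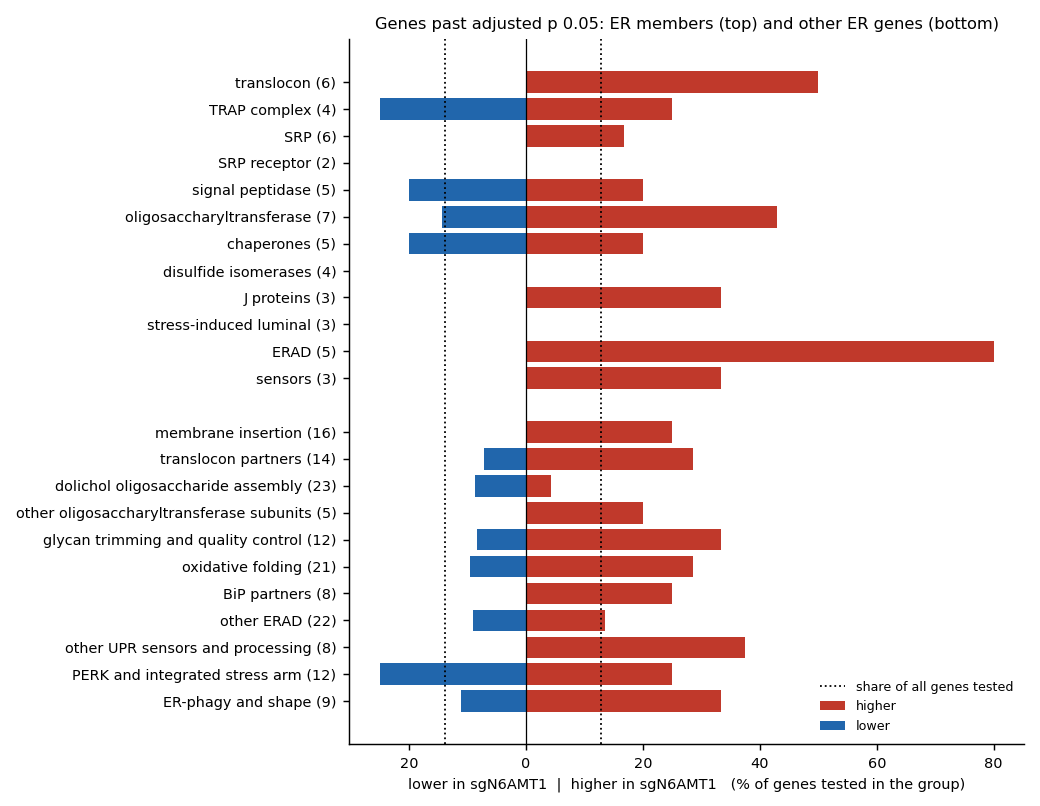
Percentage of genes that were higher (red, to the right) or lower (blue, to the left) in sgN6AMT1 at an adjusted p of 0.05, by role, with the number of genes tested in parentheses, for the 53 ER genes (top) and 150 further ER genes (bottom). Dotted lines mark the shares over all genes, 12.9% higher and 13.9% lower. ERAD (4 of 5) and the translocon (3 of 6) extend furthest to the right, and the disulfide isomerases, stress-induced luminal proteins and SRP receptor have no call.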

How the data were processed

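Ribo-Seq counts of 6 K562 libraries were read from 1 table. The authors trimmed reads (cutadapt), removed rRNA and tRNA reads, aligned to canonical transcripts (Bowtie2) on GRCh38 and counted footprints, and they deposited whole-number counts per transcript, neither normalized nor pooled. Whether these are P-site counts or annotation overlaps is not given in the sources used here. The methods name no molecular identifiers, and PCR copies may therefore add to counting error. RNA-Seq was not used here.

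Genes were tested with edgeR 4.0.16 (R 4.3.3; TMM factors, filterByExpr with a minimum of 10 counts, robust quasi-likelihood F test, 2-sided, Benjamini-Hochberg adjustment over 9202 genes, threshold 0.05). CPM use TMM-adjusted totals. Alternatives were DESeq2 1.42.0, other factors and filters, limma-voom (limma 3.58.1), a replicate block, fits without each library, removal of trends on coding length and GC content (loess, span 0.5), and thinning to 1821356 counts. The fit was tested on simulated data. Locations and coding lengths come from GENCODE 44 on GRCh38: 50 of the 53 transcripts matched, and SRP72, HYOU1 and XBP1 took the location of the gene. Promoters come from RefSeq, whose starts may differ from those of the counted transcripts.

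The ER genes, roles and further lists were chosen with earlier results of these data known. Described in full were N6AMT1, the 8 genes of each class with the smallest p, all other called ER genes, key chaperones and sensors, EIF2AK3, ATF4, DDIT3, and the 5 largest increases and 5 largest decreases called in the list of further ER genes. Of that list, 161 of 164 genes were in the table. Genes with near-identical copies (NOMO1 to NOMO3, ALG10 and ALG10B, HBG1 and HBG2) and 13 ER genes with pseudogenes may share footprints. Same-numbered replicates did not deviate together (r from -0.061 to 0.020), so libraries were not paired. Some marker genes are not reported here.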

Additional observations from a re-analysis of the deposited data

How the results depend on the processing

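Over the 53 ER genes and 16 alternatives, 777 of 846 values stayed on the same side of the threshold (CRELD2 and ERN1 had no value under the minimum of 50 counts). Among called changes 0 turned direction, which was unlikely in refits of the same counts. Some genes that were not called did turn: PDIA6 kept its sign in 9 of 16 alternatives and SEC11A in 10. DESeq2 called 1324 genes (585 higher, 739 lower), against 2473 (1191 and 1282) by edgeR, and 5 ER genes higher and 2 lower, against 16 and 4. With the replicate number as a block, 1167 genes were higher and 1223 lower, and the ER genes stayed at 16 and 4. Leaving out 1 library gave 9 to 17 ER genes higher and 2 to 4 lower. With total counts and no factors, which shifted the median of all genes by 0.05 (log2), 21 ER genes were higher and 2 lower, and the class medians were 0.1473 (translocation) and 0.1478 (folding), against 0.09 each. With coding length and GC trends removed, 12 were higher and 6 lower, and the folding median was 0.0377. Of the 20 calls, 13 were lost in DESeq2, 12 in at least 1 fit without a library (8 without sgCtrl replicate 2, 7 without sgN6AMT1 replicate 2) and 5 with the trends removed. The cause was not tested. The SE of log2 fold changes of the ER genes ran from 0.05 (CALR) to 0.26 (CRELD2).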

Other observations

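Further genes of the pathway list were singled out after their values were seen. OS9, a lectin that delivers glycoproteins to the SYVN1 ligase, was at 148, 131 and 137 CPM in sgCtrl and 184, 197 and 198 CPM in sgN6AMT1, without overlap (log2 fold change 0.48 ± 0.08, SE, n = 3 per group; edgeR adjusted p = 2.07e-07). CREB3L2, a membrane-held transcription factor related to ATF6, was at 42.2, 47.6 and 40.9 CPM in sgCtrl and 73.2, 66.5 and 68.9 CPM in sgN6AMT1 (0.66 ± 0.12, edgeR adjusted p = 3.35e-06). ASNS, the asparagine synthetase induced by ATF4, was at 454, 453 and 459 CPM in sgCtrl and 377, 374 and 354 CPM in sgN6AMT1 (-0.30 ± 0.06, edgeR adjusted p = 7.99e-06), while ATF4 itself was higher.

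Of the roles not yet described, 3 of 9 genes of ER-phagy and ER shape rose and 1 fell, 2 of 8 BiP partners rose and 0 fell, and 1 of 5 further oligosaccharyltransferase subunits rose and 0 fell. DESeq2 called 2, 0 and 0 of these genes higher.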
